A study of Mus musculus with 8 samples.

Results

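The genes described are 10 of the 27453 genes listed in the deposited tables: the cathepsins Ctsb, Ctsd, Ctsl, Ctsz, Ctsh, Ctsc and Ctss, the membrane proteins Lamp1 and Lamp2, and prosaposin, Psap. They are taken by name as lysosomal genes, a choice made with earlier results of these data known, and all 10 had enough reads to be among the 6759 genes tested. The libraries hold nanopore direct RNA reads of polyadenylated liver RNA from 8 C57BL/6JN mice, an inbred laboratory strain, with no transgene or agent named. The titles begin with O for 4 libraries and with Y for the other 4, and in each set replicates 1 and 2 are males and replicates 3 and 4 are female animals. Titles and age field go against each other: O-titled animals are given as 12 weeks old and Y-titled animals as 80 weeks old, while the series text sets young mice of about 2 months against old mice of about 18 months. Which set is the older therefore cannot be told from these labels, and the groups are called O-titled and Y-titled, with every fold taken as O-titled over Y-titled.

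Lysosomes are acidic organelles in which proteins, lipids and glycans are broken down. Cathepsins are their main proteases, made as inactive precursors, carried to the lysosome by mannose 6-phosphate receptors and cut to the active form at low pH. The LAMP proteins cover the inner face of the lysosomal membrane, and prosaposin is cut into saposins, small proteins that help hydrolases to reach sphingolipids. In liver, hepatocytes and Kupffer cells, the resident macrophages, are both rich in lysosomes.

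Mapped reads ranged from 545171 to 2593200 per library, and 3 reads, the floor of detection used here, stood for 1.15 to 5.94 CPM (counts-per-million of the reads in tested genes, after scaling). The 10 genes had from 17 reads (Ctss, Y-titled replicate 2) to 1494 reads (Ctsl, O-titled replicate 1) in a library, so none lay near that floor. The summed hepatocyte markers stood at 84909 to 130389 CPM, and none of the 11 measured was at 0 in any library. Each library comes from a separate animal by the numbers in the files, so the p-values below measure the spread between animals. In bulk tissue such as this, fewer cells of a type and less RNA per cell cannot be told apart.

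Of the 10 genes, 1 rose in O-titled livers, Ctss, which encodes the cathepsin that trims the invariant chain for antigen presentation on class II molecules. The other 9 did not pass at an adjusted p of 0.05 in edgeR's quasi-likelihood test, which was adjusted over all 6759 genes. Over those genes 4.01% were called in either direction and 2.09% were called higher. Among these 271 calls 52.0% were higher in O-titled libraries, and with scaling by library totals alone 70.6% of 340 calls were. Of the 10 log2 folds 9 were positive, against 49.9% of all genes, and 4 had an unadjusted p under 0.05, against 16.2% of all genes. The median log2 fold was 0.18 over the 10 genes and -0.00 over all genes tested.

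**Figure D1:**
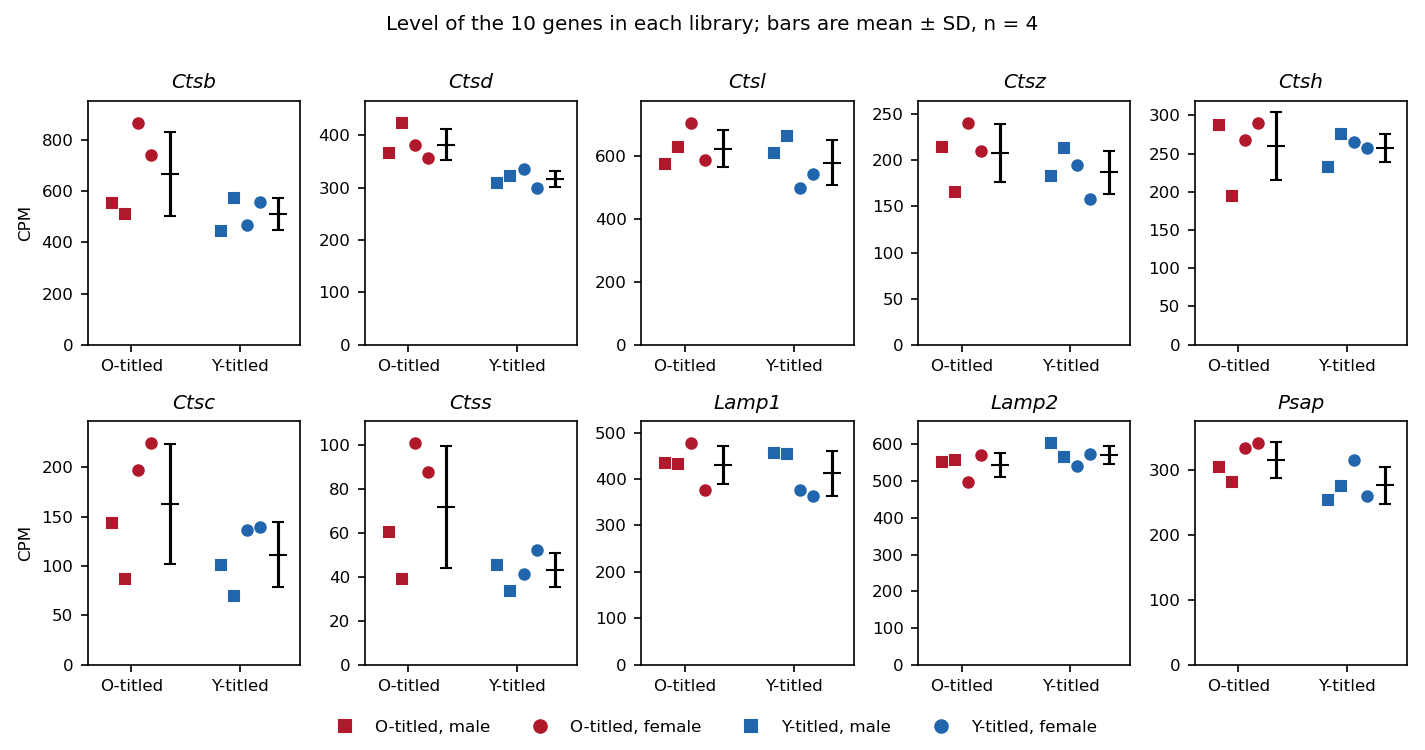
Level of each of the 10 genes in CPM (linear axes from 0, separate scale per gene) in 4 O-titled (red) and 4 Y-titled (blue) libraries, squares for males and circles for females, with mean ± SD over the 4 libraries. Ctsd is the gene whose 4 O-titled points all lie above its 4 Y-titled points, and the 2 O-titled females lie highest for Ctss, Ctsc and Ctsb.

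Ctss (ENSMUSG00000038642, mm10 chr3:95526786-95556403, plus strand) was at 60.3, 39.0, 101 and 87.5 CPM in O-titled replicates 1 to 4. In Y-titled replicates 1 to 4 it was at 45.3, 33.7, 41.3 and 52.1 CPM. The O-titled females were highest and O-titled replicate 2, a male, lay inside the Y-titled range, so the groups overlapped. The means were 71.9 ± 27.6 and 43.1 ± 7.69 CPM (SD, n = 4 each), with a log2 fold of 0.70 (SE 0.183, edgeR adjusted p = 0.0367). The call was kept in 5 of 16 alternative settings. It was lost with DESeq2 (adjusted p = 0.0979), limma voom (0.0690), no sex term (0.203), the replicate block (0.0608), and thinning to the smallest library (0.0706). It was also lost without O-titled replicate 1, 3 or 4 (0.117, 0.101 and 0.0863) and without Y-titled replicate 2, 3 or 4 (0.0642, 0.187 and 0.136).

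Among the other endopeptidases, Ctsb, a cysteine protease that also removes dipeptides from the carboxy end, had its highest values in the O-titled females (ENSMUSG00000021939, chr14:63122462-63145923, plus strand). It was at 555, 511, 866 and 740.0 CPM in O-titled and at 446, 572, 469 and 559 CPM in Y-titled replicates 1 to 4. Both O-titled females stood above all Y-titled libraries and both O-titled males within their range. The means of Ctsb were 668 ± 165 and 512 ± 63.2 CPM (log2 fold 0.36, SE 0.134, adjusted p = 0.169). It passed in 1 of 16 alternatives, without Y-titled replicate 2 (0.0389).

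Ctsl, the endopeptidase cathepsin L (ENSMUSG00000021477, chr13:64359337-64370890, minus strand), was at 574, 627, 703 and 585 CPM in O-titled and at 608, 663, 499 and 543 CPM in Y-titled replicates 1 to 4. The groups overlapped, with a log2 fold of 0.11 and a 95% interval from -0.13 to 0.36 (adjusted p = 0.707). Ctsd, the aspartic protease cathepsin D (ENSMUSG00000007891, chr7:142375911-142388038, minus strand), was at 367, 423, 382 and 356 CPM in O-titled and at 309.7, 323, 335 and 299.8 CPM in Y-titled replicates 1 to 4. It was the only gene of the 10 whose 4 O-titled values all lay above the 4 Y-titled values, an order found for 4.1% of all genes tested. The means of Ctsd were 382 ± 29.4 and 317 ± 15.5 CPM, but its difference did not pass (log2 fold 0.27, SE 0.105, adjusted p = 0.192, and 0.0616 to 0.407 over the 16 alternatives).

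The exopeptidases trim proteins from their ends. Ctsc, also called dipeptidyl peptidase 1, activates the serine proteases of immune cell granules (ENSMUSG00000030560, chr7:88278085-88310888, plus strand). It was at 143, 87.3, 197 and 224 CPM in O-titled and at 101, 69.3, 136 and 139 CPM in Y-titled replicates 1 to 4. In both groups the females were higher than the males, and within females the O-titled values lay above the Y-titled ones. Its log2 fold of 0.53 (SE 0.153) missed the threshold (adjusted p = 0.0658). It passed in 5 of 16 alternatives: with library totals alone (0.0295), no count filter (0.00564), the replicate block (0.0454), without O-titled replicate 2 (0.0121), and without Y-titled replicate 1 (0.0417).

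Ctsh, an aminopeptidase (ENSMUSG00000032359, chr9:90054152-90076089, plus strand), was at 288, 195, 268 and 289.8 CPM in O-titled and at 232, 275, 265 and 257 CPM in Y-titled replicates 1 to 4. Its means, 260.1 ± 44.6 and 257 ± 18.3 CPM, differed by less than the spread between animals (log2 fold 0.03, 95% interval -0.24 to 0.29), and the sign turned without O-titled replicate 1 (-0.07). Ctsz, a carboxypeptidase (ENSMUSG00000016256, chr2:174427493-174439039, minus strand), was at 215, 165, 240.5 and 211 CPM in O-titled and at 183, 214, 195 and 158 CPM in Y-titled replicates 1 to 4. The groups overlapped here too (log2 fold 0.16, 95% interval -0.11 to 0.44, adjusted p = 0.615).

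Neither membrane protein passed. Lamp1 (ENSMUSG00000031447, chr8:13159161-13175338, plus strand) was at 436, 431, 477 and 377 CPM in O-titled and at 456, 453, 377 and 364 CPM in Y-titled replicates 1 to 4. Lamp2 (ENSMUSG00000016534, chrX:38401357-38456454, minus strand) was at 551, 556, 497 and 571 CPM in O-titled and at 602, 566, 541 and 573 CPM in Y-titled replicates 1 to 4. Both genes overlapped between the groups. The log2 fold of Lamp1 was 0.07 (95% interval -0.17 to 0.30), turning to -0.02 without O-titled replicate 3. That of Lamp2 was -0.07 (95% interval -0.28 to 0.14), turning to 0.02 when libraries were scaled by their totals alone.

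Psap (ENSMUSG00000004207, chr10:60277627-60302597, plus strand) was at 305, 282, 333 and 341 CPM in O-titled and at 254, 275, 316 and 259 CPM in Y-titled replicates 1 to 4. In each sex both O-titled values lay above both Y-titled values, which Ctsd also showed, and which held for 6.69% of all genes tested. The log2 fold of Psap was 0.19 (95% interval -0.03 to 0.42, adjusted p = 0.409).

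Within females, 2 of the 10 genes rose in O-titled livers, Ctss and Ctsb, against 5.47% of all genes called in either direction and 2.74% called higher. Ctss had a log2 fold of 1.00 (SE 0.226, edgeR adjusted p = 0.0110) and Ctsb one of 0.64 (SE 0.157, adjusted p = 0.0189). Ctsc had 0.62 (SE 0.205, adjusted p = 0.104) and Ctsd 0.22 (SE 0.145, adjusted p = 0.512). The other 6 ranged from -0.06 to 0.35 and did not pass. In females both O-titled values lay above both Y-titled values for 8 of the 10 genes, against 22.3% of all genes, and in males for 2 of the 10, against 20.3%. The opposite order, both O-titled values below both Y-titled values, was found in males for 2 of the 10, Lamp1 and Lamp2, against 20.4% of all genes, and in females for 0. Ctss lost its female call without O-titled replicate 3 (adjusted p = 0.0501), without Y-titled replicate 3 (0.173) and with DESeq2 (0.0722). Ctsb lost its female call without the same libraries (0.111 and 0.266) and when thinned (0.0614). Without one of these libraries an arm holds 1 female, which is assumed to vary like the other groups, whose spread the fit pools.

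Within males, edgeR called 0 of the 10 genes, against 1.26% of all genes, and DESeq2 and limma voom also called 0. At an unadjusted p under 0.05 there was 1 (9.45% of all genes), Ctsd, with a log2 fold of 0.32 (SE 0.147, adjusted p = 0.501). The male log2 folds of Ctsc, Ctss and Ctsb were 0.43, 0.34 and 0.07, with 95% intervals from -0.04 to 0.90, from -0.17 to 0.86 and from -0.26 to 0.40. The difference between the sexes was itself tested, and edgeR called 0 of the 10 genes, against 0.385% of all genes, as did DESeq2 and limma voom. The gene at an unadjusted p under 0.05 (8.46% of all genes) was Ctsb, whose log2 fold was larger in females by 0.57 (95% interval 0.10 to 1.03, adjusted p = 0.448). For Ctss the difference was 0.66 (95% interval -0.04 to 1.36, adjusted p = 0.630). The calls in females alone are therefore not shown to be particular to females.

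**Figure D2:**
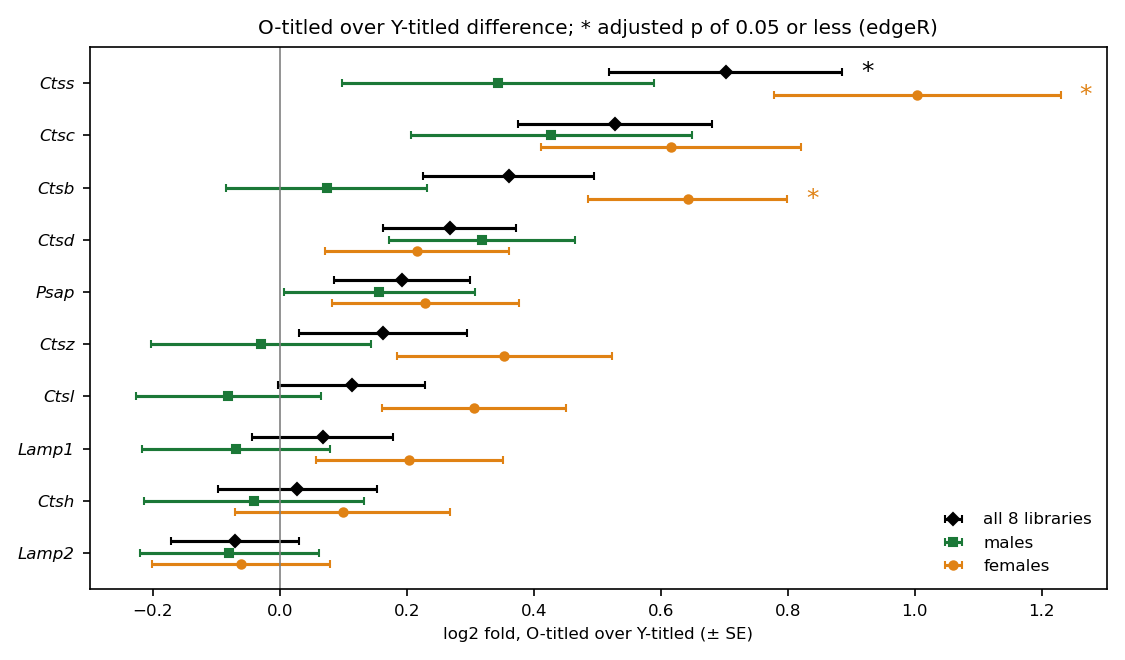
Log2 fold of O-titled over Y-titled livers for the 10 genes, over all 8 libraries (black diamonds), in males (green squares) and in females (orange circles), with SE bars. Stars mark an adjusted p of 0.05 or less in edgeR: Ctss over all libraries and Ctss and Ctsb in females.

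Between the sexes 1 of the 10 genes passed, Ctsc, which was higher in females, against 2.96% of all genes called in either direction and 1.81% called higher. It stood at 174 ± 43.6 CPM in the 4 females and 100.3 ± 31.6 CPM in the 4 males (log2 fold 0.74, SE 0.153, edgeR adjusted p = 0.0112). The ranges of the sexes overlapped, at 136 to 224 CPM in females and 69.3 to 143 CPM in males. The call held in 12 of 14 alternatives and was lost without O-titled replicate 4 (0.0568) and when thinned (0.0677). Ctss and Ctsb had female over male log2 folds of 0.56 (SE 0.182, adjusted p = 0.135) and 0.31 (SE 0.134, adjusted p = 0.346). The 6 genes other than Ctsb, Ctsc, Ctsd and Ctss lay between -0.16 and 0.16.

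Macrophages express many of these genes, so the list of 20 macrophage and Kupffer cell markers is given beside the results. Of the 17 with enough reads 1 rose in O-titled livers, Aif1, a protein of activated macrophages, 0 fell and 16 had a positive log2 fold, with a median of 0.68 and 9 at an unadjusted p under 0.05. Aif1 kept its call only without O-titled replicate 2 when each library was left out (otherwise 0.0625 to 0.251). DESeq2 called 3 of the 17, and 238 of all 6759 genes. None of the 20 was at 0 in all libraries, and 4 were at 0 in at least 1. Their summed level was 1915, 749.7, 2050 and 1575 CPM in O-titled replicates 1 to 4 and 943, 887, 1011 and 1048 CPM in Y-titled replicates 1 to 4. O-titled replicate 2 therefore had the lowest sum of all 8 libraries, and the other O-titled libraries the 3 highest. Lyz2, the lysozyme of macrophages, stood at 244 ± 124 against 91.1 ± 7.68 CPM (adjusted p = 0.211), and Cd5l, secreted by tissue macrophages, at 203 ± 88.1 against 128 ± 7.78 CPM (adjusted p = 0.426). Clec4f, the lectin of Kupffer cells, stood at 131 ± 34.0 against 127 ± 16.4 CPM (log2 fold 0.01, adjusted p = 0.989).

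The level of Ctss can be set against that sum. In percent of the summed markers Ctss was at 3.15, 5.20, 4.91 and 5.56 in O-titled replicates 1 to 4. In Y-titled replicates 1 to 4 it was at 4.80, 3.79, 4.09 and 4.97, and the groups overlapped. The means of this ratio were 4.71 ± 1.07% and 4.41 ± 0.562% (SD, n = 4 each). The same ratio was 10.7 ± 2.88% and 11.3 ± 2.64% for Ctsc and 46.6 ± 16.2% and 52.9 ± 8.34% for Ctsb. The part of the macrophage markers in the difference of Ctss was not tested, since the sums form 2 separate sets of 3 and 5 libraries, too few for a correlation within either. The ratio was looked at after the values had been seen.

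**Figure D3:**
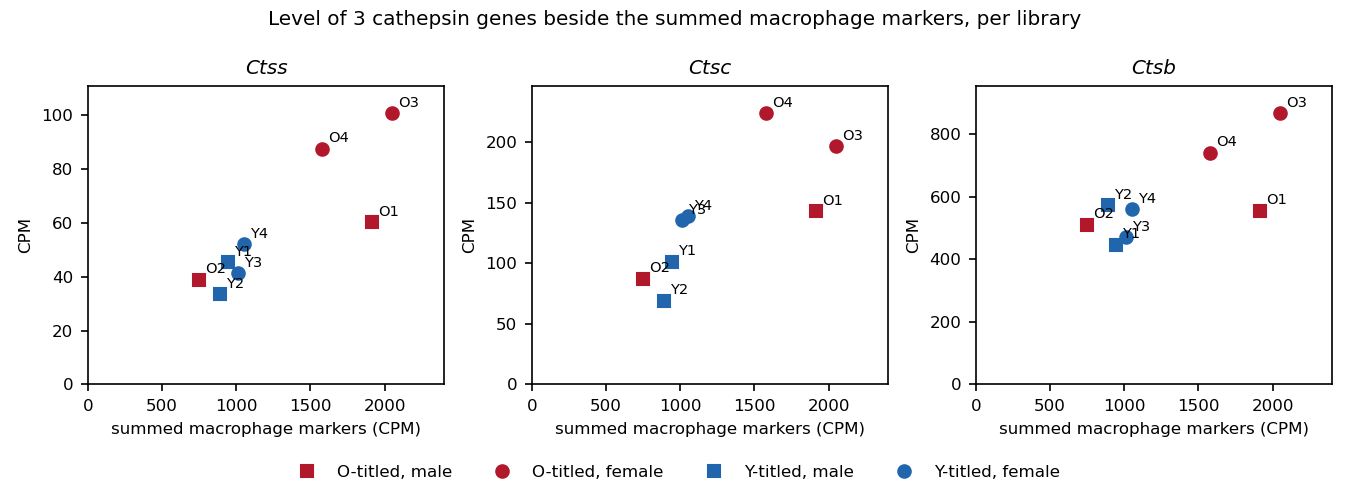
Level of Ctss, Ctsc and Ctsb (CPM, vertical axes from 0) against the summed macrophage and Kupffer cell markers (CPM, horizontal axes) in each of the 8 libraries, red for O-titled, blue for Y-titled, squares for males and circles for females. The libraries form a set of 3 at 1575 to 2050 CPM and a set of 5 at 749.7 to 1048 CPM that holds O-titled replicate 2.

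Markers of other cell types were summed in the same way, and their calls stand beside the same 2.09% of all genes called higher. Of 12 tested sinusoidal endothelial markers 1 rose, the Fc receptor Fcgr2b, which macrophages also carry (68.5 ± 9.01 against 45.0 ± 15.1 CPM, adjusted p = 0.0490), with the call kept only without O-titled replicate 3 or Y-titled replicate 4 when each library was left out (otherwise 0.0721 to 0.204). Their sums overlapped, at 368 to 449 CPM in O-titled and 283 to 450.1 CPM in Y-titled libraries. Of 7 stellate cell markers 1 rose, the matrix proteoglycan decorin, Dcn (175 ± 13.3 against 117 ± 23.6 CPM, adjusted p = 0.00956), and it kept the call without each of the 8 libraries. A positive log2 fold was found for 5 of the 7. Col3a1 went the other way (16.0 ± 3.19 against 23.5 ± 9.47 CPM, log2 fold -0.66, edgeR adjusted p = 0.195), as did Rgs5 (log2 fold -0.07). Most of the difference between the means of the stellate sum below came from Dcn. The stellate sum was 305 ± 29.3 CPM (266 to 337) in O-titled and 242 ± 26.5 CPM (216 to 276) in Y-titled libraries, so the stellate and lymphocyte sums lay higher on average with the levels of Ctss, Ctsc and Ctsb, and their part in those differences was not tested. Of the 11 hepatocyte markers 0 passed in edgeR, DESeq2 or limma voom. At an unadjusted p under 0.05 in edgeR there were 4, against 16.2% of all genes. These 4 were all lower in O-titled livers: Apoa1, Ttr, Serpina1c and Hnf4a (log2 folds -0.46, -0.36, -0.40 and -0.39). The 4 with a positive log2 fold were other genes, Cps1, Ass1, Tat and Cyp2e1. No T or B lymphocyte marker had enough reads to be tested, and their sum was higher on average in O-titled livers, at 26.6 ± 12.0 CPM (14.8 to 43.4) against 14.5 ± 2.95 CPM (11.9 to 18.4). In females the hepatocyte marker Serpina1c, a protease inhibitor, was lower than in males (adjusted p = 0.00717), as the only marker called between the sexes in these lists.

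The rest of the lysosome was measured with 126 other genes, of which 97 were tested. In O-titled livers 3 rose, 0 fell and 94 did not pass. The share called higher was 3.09%, against 2.09% of all genes, and 21 genes (21.6%) had an unadjusted p under 0.05, against 16.2%, so both shares lay near the background. A positive log2 fold was found for 69 of them (71.1%, against 49.9% of all genes), with a median of 0.14. The 3 were Grn, which encodes progranulin, a secreted precursor of lysosomal granulins, Lgmn, the asparaginyl endopeptidase that cuts cathepsin precursors, and Pla2g15, the lysosomal phospholipase A2. Grn stood at 189 ± 41.8 against 134 ± 21.7 CPM (log2 fold 0.49, SE 0.113, edgeR adjusted p = 0.0185) and was called in 10 of 16 alternatives, not without O-titled replicate 1 or Y-titled replicate 3 or 4 (up to 0.0917). Lgmn stood at 87.8 ± 23.5 against 58.6 ± 10.2 CPM (adjusted p = 0.0355) and was called in 5 of 16 alternatives, with the call lost without O-titled replicate 1 or 3 and without each Y-titled library (up to 0.150). Pla2g15 stood at 21.8 ± 4.19 against 10.8 ± 3.94 CPM (adjusted p = 0.0291) and was called in 8 of 15 alternatives, with the call lost without O-titled replicate 1 or 4 and Y-titled replicate 1 or 4 (up to 0.133).

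By role, 5 of the 7 lists held no gene that passed in edgeR, DESeq2 or limma voom. An unadjusted p under 0.05 in edgeR was found for 16.2% of all genes. In these lists it was found for 0 of 2 cathepsin inhibitors, 4 of 20 glycosidases and sulfatases and 7 of 22 in the membrane protein list. It was found for 0 of 17 proton pump subunits and 0 of 10 sorting receptors and regulators. Of the 7 in the membrane protein list Cd164 was lower in O-titled livers and the rest were higher. That list, and the 7, include Npc2, a soluble lysosomal protein. Cystatin C, Cst3, stood at 271 ± 32.6 against 248 ± 8.20 CPM and cystatin B, Cstb, at 96.1 ± 13.7 against 82.4 ± 5.76 CPM. Of the 7 other lysosomal peptidases 1 passed, Lgmn, and Ctsa, the carboxypeptidase that protects beta-galactosidase, was at 110.2 ± 12.3 against 92.5 ± 11.1 CPM (adjusted p = 0.297). Among the glycosidases and sulfatases, the mannosidase Man2b1 was at 69.5 ± 11.5 against 59.8 ± 9.82 CPM. Of the 19 genes tested in the list of lipid and other hydrolases 2 passed, the phospholipase Pla2g15 and the granulin precursor Grn, which was placed in that list. The acid lipase Lipa was at 141 ± 12.6 against 155 ± 22.6 CPM (adjusted p = 0.611).

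Among the other lysosomal membrane proteins, Laptm4a was at 239 ± 27.5 against 237 ± 16.4 CPM and the sialomucin Cd164 at 205 ± 34.4 against 254 ± 26.0 CPM (log2 fold -0.33, adjusted p = 0.192). Of the 17 subunits of the proton pump, which acidifies the lysosome, 14 had a positive log2 fold, with a median of 0.13. Atp6v0c, part of its membrane ring, stood at 236 ± 27.6 against 209 ± 17.4 CPM, and Atp6v1g1, of its stalk, at 123 ± 13.9 against 108 ± 10.5 CPM. Of the 10 sorting receptors and regulators 4 had a positive log2 fold. The mannose 6-phosphate receptor M6pr was at 74.2 ± 7.39 against 69.9 ± 8.46 CPM and the retromer subunit Vps35 at 68.2 ± 6.98 against 62.4 ± 0.841 CPM. In these 5 lists the median log2 fold ran from -0.04 (sorting receptors and regulators) to 0.22 (glycosidases and sulfatases).

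Some of these genes were also called between the sexes. Arsa, arylsulfatase A, was lower in females than in males, at 7.35 ± 4.25 against 26.0 ± 5.64 CPM (log2 fold -1.89, edgeR adjusted p = 9.54e-04), and it kept the call without each of the 8 libraries. Grn was higher in females (log2 fold 0.46, adjusted p = 0.0326), but that call was lost without each of the 8 libraries in turn (up to 0.152).

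**Figure D4:**
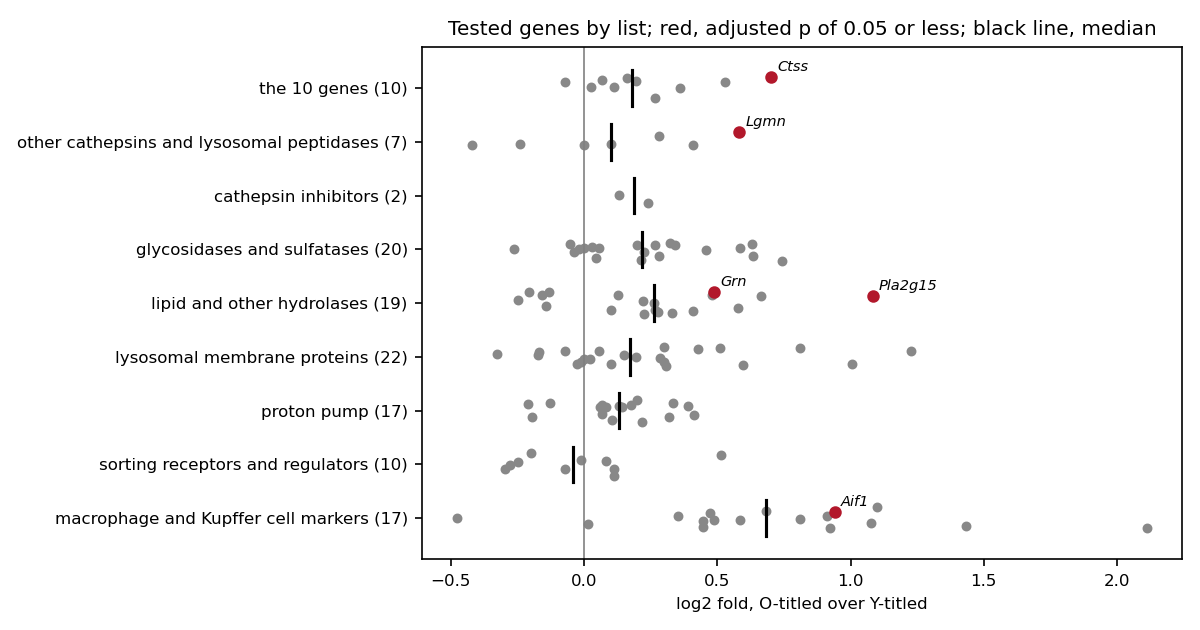
Log2 fold of O-titled over Y-titled livers for each tested gene (points, spread vertically at random), by list with the number tested, for the 10 genes, the 7 lists of other lysosomal genes and the macrophage markers, with the list median as a black line. Red points passed at an adjusted p of 0.05: Ctss, Lgmn, Grn, Pla2g15 and Aif1. Cd68 is in both the membrane protein list and the macrophage list.

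Lamp2 makes 3 proteins that share the part inside the lysosome and differ in the stretch that spans the membrane and faces the cytosol. LAMP-2A is the receptor of chaperone-mediated autophagy, LAMP-2B acts in the fusion of autophagosomes with lysosomes, and LAMP-2C is known to bind nucleic acids taken up by the lysosome. The files list all 3 transcripts, Lamp2-201, Lamp2-202 and Lamp2-203, which are named here by the codons before the stop. Their first 1109 coding bases are identical in GENCODE M21, and the reading frames then end in 3 alternative last exons (each exon 9). On mm10 (minus strand), these ends lie at chrX:38405432-38405570 for LAMP-2A, chrX:38421712-38421850 for LAMP-2B and chrX:38402139-38402280 for LAMP-2C. They are printed as the part of the coding sequence in which the 3 isoforms differ. Capitals mark the last 5 codons before the stop, the cytosolic end that carries the lysosomal sorting signal.
LAMP-2A: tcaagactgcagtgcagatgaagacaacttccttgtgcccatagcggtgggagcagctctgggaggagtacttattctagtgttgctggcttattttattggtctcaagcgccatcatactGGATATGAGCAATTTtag
LAMP-2B: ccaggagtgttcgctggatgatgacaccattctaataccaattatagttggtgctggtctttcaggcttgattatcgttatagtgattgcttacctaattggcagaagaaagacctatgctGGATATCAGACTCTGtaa
LAMP-2C: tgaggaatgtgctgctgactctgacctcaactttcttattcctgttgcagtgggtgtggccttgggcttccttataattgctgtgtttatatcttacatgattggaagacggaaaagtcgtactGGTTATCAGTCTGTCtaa
Matched in order from the first base over 139 positions, without gaps, the ends of LAMP-2A and LAMP-2B shared 53.2% of bases. By the same count LAMP-2A and LAMP-2C shared 39.6%, and LAMP-2B and LAMP-2C 40.3%. The LAMP-2C end is longer, at 142 bases, and no gap was allowed for this. Its 2 percentages can therefore be too low, and the 3 pairs are not ranked by them.

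LAMP-2A made up most of the Lamp2 reads in all 8 libraries, at 61.8 ± 3.56% in O-titled and 57.2 ± 1.78% in Y-titled livers (SD, n = 4 each, exact two-sided permutation p = 0.0857, adjusted p = 0.571 over the 16 shares compared). LAMP-2B made up 37.5 ± 3.45% and 41.4 ± 2.00% (exact permutation p = 0.114). In both cases O-titled replicate 3 lay inside the Y-titled range, with 56.5% LAMP-2A (exact 95% binomial interval 52.3 to 60.6%). LAMP-2C was rare, with 11, 3, 5 and 3 reads in O-titled replicates 1 to 4 and 17, 4, 9 and 8 reads in Y-titled replicates 1 to 4. Its share was 0.767, 0.725, 0.874 and 0.368% in O-titled and 1.78, 1.40, 1.53 and 1.25% in Y-titled replicates 1 to 4. All O-titled shares lay below all Y-titled ones, although the exact 95% intervals of the single libraries were wide, from 0.0760 to 1.07% in O-titled replicate 4 and from 0.382 to 3.54% in Y-titled replicate 2.

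The mean share of LAMP-2C was 0.683 ± 0.219% against 1.49 ± 0.222% (log2 ratio -1.12, and -1.26 to -0.92 when each library was left out). Its exact permutation p was 0.0286, the smallest that 4 against 4 can give, and its adjusted p over the 16 shares was 0.457. No share alone at that smallest p could pass this adjustment, so its not passing decides nothing about LAMP-2C. Summed over libraries there were 22 LAMP-2C reads of 3235 in O-titled livers (0.680%, exact 95% interval 0.427 to 1.03%) and 38 of 2470 in Y-titled livers (1.54%, 1.09 to 2.11%). These intervals cover counting error only, and the shares were compared after their values had been seen.

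**Figure D5:**
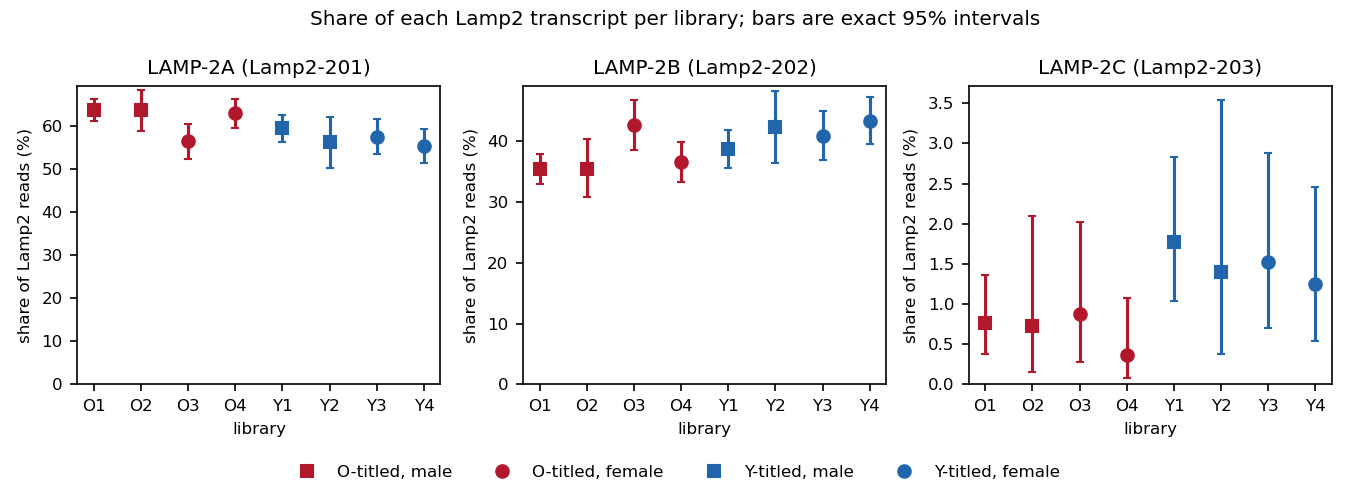
Share of Lamp2 reads on each of 3 transcripts (percent, axes from 0 with separate scales) in each library, red for O-titled and blue for Y-titled, squares for males and circles for females, with exact 95% binomial intervals. The 4 O-titled shares of LAMP-2C, 0.368 to 0.874%, all lie below the 4 Y-titled shares, 1.25 to 1.78%, while those of LAMP-2A and LAMP-2B overlap.

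Over all genes, transcript usage was tested with diffSpliceDGE of edgeR, which called 0 of 1236 genes (percent called 0), with 8 genes (0.647%) at an unadjusted Simes p under 0.05. The limma test of the same kind also called 0, with 38 at an unadjusted p under 0.05. The 6 of the 10 genes with 2 or more listed transcripts had Simes p values from 0.624 (Lamp2) to 0.998 (Ctss). LAMP-2C lay under the count filter of that test. With a minimum count of 5 it entered, and the Simes p of Lamp2 was 0.0111, without passing over all genes.

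Of the 16 transcript shares none passed the exact permutation test after adjustment, and 1, that of LAMP-2C, had an unadjusted p under 0.05. A single share at the smallest possible p, 0.0286, is adjusted to 0.457, so no share alone could have passed. The 2 shares of Ctsd, Ctsl, Ctsc and Ctss mirror each other and were counted as separate tests. Ctss-202 took 76.4 ± 5.69% of Ctss reads in O-titled and 78.0 ± 7.11% in Y-titled livers. Ctsc-203 took 7.32 ± 2.40% and 8.21 ± 3.87% of Ctsc reads, and Ctsd-202 took 86.5 ± 1.94% and 86.3 ± 2.19% of Ctsd reads. Ctsl-201 and Ctsl-205, transcripts of 1971 and 6168 bases, had 2952 and 3104 reads of mean length 1189 and 1194 bases. How reads that match more than 1 transcript were assigned is not given in the sources used here. The Ctsl split and the shares of the 5 Psap transcripts are therefore uncertain. So are those of Ctss-201 and Ctss-202, both of 1355 bases, which begin at the same base and end at 95556400 and 95556403. The Ctsd and Ctsc transcripts also overlap in position, and their shares rest on the same assignment. The gene values above are sums over the transcripts. Ctsb, Ctsh, Ctsz and Lamp1 have 1 listed transcript each.

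The start regions of the genes were examined for a pair of motifs with known roles in this setting: CACGTG, the core of the sites bound by TFEB and its relatives, which control lysosomal genes, and a pair of GAAA with 2 bases between, the core of interferon response elements. RefSeq windows (GRCm38.p6) from 250 bases before to 50 after the start were found for 8 of the 10 genes, other than Ctsb and Ctsh. For Ctsd this RefSeq start lies inside the spans of the listed transcripts Ctsd-201 and Ctsd-202, and for Ctsl inside that of Ctsl-205. A further Psap window, at chr10:60284211-60284510, has its start inside the spans of all listed Psap transcripts but Psap-203. Some bases before these starts therefore lie within those spans. CACGTG, which reads the same on both strands, was in the windows of 3 genes: Lamp1 with 4 copies, Ctsd with 2 and Ctsl with 1. It was in 7.15% of the 32851 windows of this length. The pair of GAAA, searched on both strands, was in the windows of Ctss and Lamp1 and in 3.44% of all windows. The motifs do not overlap each other there.

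The 100 bases before the start are printed for Lamp1 (chr8:13159061-13159160, plus strand, capitals mark CACGTG), since they hold all 4 copies, and for Ctss (chr3:95526686-95526785, plus strand, capitals mark the pair of GAAA and the bases between), the gene called in O-titled livers.
Lamp1: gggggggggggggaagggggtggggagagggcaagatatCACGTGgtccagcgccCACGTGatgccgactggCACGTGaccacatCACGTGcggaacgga
Ctss: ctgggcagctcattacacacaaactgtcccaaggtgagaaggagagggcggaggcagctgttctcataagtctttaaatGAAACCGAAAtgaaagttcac
The copies in Lamp1 begin 61, 45, 28 and 15 bases before the start, and the match in Ctss begins 21 bases before it. Lamp1, Ctsd and Ctsl, with CACGTG, had O-titled over Y-titled log2 folds of 0.07, 0.27 and 0.11, and the 5 other genes with a window ranged from -0.07 (Lamp2) to 0.70 (Ctss). A match describes the letters of the window and no binding was measured.

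Across the 8 libraries the levels of the 10 genes followed each other unevenly. These are correlations of log2 CPM over 8 libraries that share title, sex and depth, and they are given as descriptions. The closest pairs were Ctsc with Ctss (Pearson r = 0.91), Ctsb with Ctss (0.84) and Ctsl with Lamp1 (0.83). The most opposed pairs were Lamp2 with Psap (-0.67) and Lamp2 with Ctsb (-0.63).

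Of all 6759 genes, the 3 with levels most like those of Ctss were Psmb10 (r = 0.99), H2-D1 (0.97) and Kng2 (0.96). For Ctsc they were Ly6e, Slc16a7 and Ildr2 (each r = 0.98), and for Ctsb Tapbp, Ifitm2 and Ppat (0.96 or above). Ctsd was closest to Lrat, Haus7 and Lss, Ctsl to Mcl1, Slc7a2 and Rfc5, Ctsz to Slc25a38, Cxcl12 and Spi1, and Ctsh to Baz2a, Nsmce2 and Plac9a. Lamp1 was closest to Nfkbib, Xpnpep1 and Ubtf, Lamp2 to Grsf1, C1s1 and Numb, and Psap to Rap1gds1, Apc and Tmem53, with r from 0.90 (Lamp2 with Numb) to 0.98 (Ctsz with Slc25a38) over these 7 genes.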

How the data were processed

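Direct RNA reads of 8 mouse livers were analysed, 4 O-titled and 4 Y-titled, each with 2 males and 2 females by the labels. The deposited tables give read counts for each transcript, whole numbers that were not normalized, per the file headers. The submitters' processing notes name minimap2 2.24, mm10 and DESeq2, and the counting tool and annotation are not given in the sources used here. Counts were summed to genes, and filterByExpr (minimum count 10, groups by title) chose the genes to test. Library sizes were adjusted by TMM, the trimmed mean of M values. edgeR 4.0.16 (R 4.3.3) tested title with sex as a covariate by its robust quasi-likelihood test, and a fit with 4 groups gave the values within each sex. P-values were adjusted by Benjamini-Hochberg over all 6759 genes, with a threshold of 0.05. CPM (counts-per-million) are relative to the reads in tested genes after that scaling. Positions and coding sequences come from GENCODE M21, promoters from RefSeq. The alternatives were DESeq2 1.42.0, limma 3.58.1 voom, other scalings, no count filter, no sex term, the replicate block, thinning, and each library left out. The tests were checked on simulated data. The members and lists, and the rule for named genes (all 10, called list genes, the 2 most abundant of each list, and the 3 genes most like each member), were chosen with earlier results of these data known, and some of the genes this rule names are not reported here. Depth ranged from 545171 to 2593200 mapped reads, and low counts have the widest error.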

Additional observations from a re-analysis of the deposited data

How the results depend on the processing

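Of the 10 genes, 1 was called in O-titled over Y-titled livers. The count was 0 with DESeq2, with limma voom, with no sex term and when thinned, 2 with library totals alone and with no count filter, and 0 to 2 when each library was left out. The 3 calls among other lysosomal genes became 1 with DESeq2, 9 with library totals alone and 8 with no count filter. They became 0 with no sex term, with the replicate block and when thinned, and 0 to 7 when each library was left out. Over all genes 271 calls became 600 with no count filter, 134 with no sex term and 138 when thinned, where 4444 genes could be tested, and 154 to 294 when each library was left out. For females over males 1 call became 2 with no count filter, 0 when thinned and 0 to 1 when each library was left out. Within females 2 calls became 1 with DESeq2 and when thinned, and 0 to 3 when each library was left out. Library totals alone moved the median of all genes by 0.10. Signs turned for Lamp2 with library totals alone (0.023) and when thinned (7.10e-04), and for Ctsb in males when thinned (-0.041). With each library left out the log2 fold ran from -0.074 to 0.15 for Ctsh and from -0.024 to 0.12 for Lamp1. In males it ran from -0.097 to 0.26 for Ctsb, from -0.021 to 0.79 for Ctsc and from -0.088 to 0.65 for Ctss. The difference between the sexes ran from -0.16 to 0.64 for Ctsc and from -0.20 to 0.011 for Ctsd. The causes of these changes, also of those when thinned, were not tested. Same-numbered libraries did not deviate together over the tested genes (r = -0.06 in males and -0.03 in females). With 2 animals per title and sex this cannot exclude a pairing, and the main test did not pair the numbers. With the replicate block 1 of the 10 genes was called, Ctsc in place of Ctss, and 184 of all genes. All 10 genes passed the count filter, so the planned test of genes under it was not run. The planned correlation with the macrophage markers is not given, because the libraries form 2 separate sets.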
